A study of Rattus norvegicus with 18 samples.

Results

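The T cell receptor complex and coreceptor genes were followed in kidney tissue of rats whose left ureter had been tied. They are the genes named Cd3d, Cd3e, Cd3g, Cd247, Cd4, Cd8a, Cd2, Cd5, Lck and Zap70, taken by name from the deposited expression table. All 10 were found, each as 1 row, among the 30957 genes of the table. Poly(A)-selected RNA from renal parenchyma was sequenced after unilateral ureteral obstruction, in which a silk ligature closes one ureter and urine backs up into the kidney on that side. The 18 libraries comprise 5 at 1 day of obstruction, 5 at 3 days, 5 at 7 days and 3 at 14 days. The animals were operated under ketamine, all groups carried the ligature on the left side, and the labels name no strain, sex, age or transgene. A sham-operated group and a metabolomic arm belong to the study and were not analysed here. Durations are therefore set against each other, with no kidney labelled as unobstructed among them.

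T cells recognise antigen through a receptor whose variable chains have no signalling tail of their own, and the signal is carried by the CD3 gamma, delta and epsilon chains and by the zeta chain, encoded by Cd247. The coreceptors CD4 and CD8 bind MHC class II and class I molecules and bring the kinase LCK to the receptor. LCK then phosphorylates the CD3 and zeta tails, and ZAP-70 docks there. In the obstructed kidney, T cells are known to enter the interstitium together with macrophages. In rats CD4 is also carried by monocytes and macrophages, and CD8 alpha by natural killer cells, so these 2 genes are less specific than the CD3 chains.

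Libraries held between 5488540 and 12049915 counts assigned to genes, of which 77 to 2125 came from the 10 genes. These are low numbers. Cd3d, for example, had 1 to 83 counts per library at 1, 3 and 7 days, and Cd5 had 55 counts over all 18 libraries. The labels do not tie the libraries to separate animals, so p-values measure the spread between these libraries, and all libraries carry the same batch label. The 3 libraries labelled 14 days stood apart from the rest. They listed the tubular injury gene Havcr1 at 1.52, 7.45 and 0.317 FPKM (fragments scaled to gene length and library size), against 188 to 1040 FPKM in the other 15 libraries. Mitochondrially encoded genes took 24%, 27.4% and 14.4% of their counts, against 7.11% to 13.6% elsewhere. Loop and collecting duct markers were also high in all 3, adipocyte markers in replicates 1 and 3 and urothelium markers in replicate 1, as given beside the results they touch. Kidney identity was present throughout, since podocyte markers summed to between 47.1 and 181 FPKM in all 18 libraries. For these reasons the durations of 1, 3 and 7 days are described first, and the comparisons were also fitted without the libraries labelled 14 days.

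The 3 CD3 genes lie side by side on chromosome 8. In the coordinates of the deposited table, whose build is not given in the sources used here, Cd3g spans positions 49274960 to 49280901 on the minus strand, Cd3d spans 49282460 to 49287110 on the plus strand and Cd3e spans 49297608 to 49308806 on the minus strand. The gaps between them are 1558 and 10497 bases and the whole cluster covers 33847 bases. Cd247 lies on chromosome 13, Cd4 and Cd8a on chromosome 4, Cd2 on chromosome 2, Cd5 on chromosome 1, Lck on chromosome 5 and Zap70 on chromosome 9. None of the 10 genes overlaps another gene of the table.

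The promoter windows of the CD3 cluster and of Lck are shown because the CD3 genes are neighbours read from 3 starts and Lck has 2 starts of its own, while their levels moved together. The windows come from RefSeq on build GRCr8 and run from 250 bases before to 50 bases after each start. Of the 10 genes, 9 had a window, and Lck had 2, for its 2 separate starts. Each is written from 5′ to 3′ on the strand of its gene, and capitals mark matches on either strand to an ETS core (AGGAAG) or a RUNX core (TGTGGT), the cores recognised by families of transcription factors active in lymphocytes.
Cd3g (chr8:54183869-54184168, minus strand): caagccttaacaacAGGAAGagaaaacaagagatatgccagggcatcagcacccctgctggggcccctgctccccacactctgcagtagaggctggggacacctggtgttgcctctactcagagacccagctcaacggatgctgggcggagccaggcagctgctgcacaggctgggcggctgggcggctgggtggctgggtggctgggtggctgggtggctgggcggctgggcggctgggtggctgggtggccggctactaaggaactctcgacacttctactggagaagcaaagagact
Cd3d (chr8:54185269-54185568, plus strand): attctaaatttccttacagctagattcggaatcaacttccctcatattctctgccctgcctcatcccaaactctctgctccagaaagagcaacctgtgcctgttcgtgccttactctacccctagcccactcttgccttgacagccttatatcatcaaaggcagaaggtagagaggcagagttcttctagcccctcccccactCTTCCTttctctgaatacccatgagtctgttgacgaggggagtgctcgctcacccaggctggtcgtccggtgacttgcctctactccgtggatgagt
Cd3e (chr8:54211721-54212020, minus strand): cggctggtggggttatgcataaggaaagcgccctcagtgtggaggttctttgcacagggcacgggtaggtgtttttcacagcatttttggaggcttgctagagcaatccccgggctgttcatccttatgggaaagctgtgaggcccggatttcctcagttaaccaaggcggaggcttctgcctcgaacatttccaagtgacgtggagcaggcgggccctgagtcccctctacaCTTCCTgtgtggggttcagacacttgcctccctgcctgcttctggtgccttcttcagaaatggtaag
Lck (chr5:147201218-147201517, minus strand): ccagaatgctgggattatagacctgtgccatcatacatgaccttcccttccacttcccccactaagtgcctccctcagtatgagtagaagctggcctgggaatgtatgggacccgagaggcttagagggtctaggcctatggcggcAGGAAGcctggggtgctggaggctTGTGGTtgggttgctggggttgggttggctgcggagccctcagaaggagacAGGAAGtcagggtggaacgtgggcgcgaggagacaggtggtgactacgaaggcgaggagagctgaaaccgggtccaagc
Lck (chr5:147183601-147183900, minus strand): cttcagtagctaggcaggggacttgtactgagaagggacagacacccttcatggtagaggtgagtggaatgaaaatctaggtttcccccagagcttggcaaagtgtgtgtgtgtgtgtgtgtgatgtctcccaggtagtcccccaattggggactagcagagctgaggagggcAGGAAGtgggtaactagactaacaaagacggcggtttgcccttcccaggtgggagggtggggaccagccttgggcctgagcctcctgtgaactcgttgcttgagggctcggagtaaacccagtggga
The ETS core was present in 8 of the 10 windows, and in 34.5% of the 33469 windows of all genes. It was missing in the Cd2 and Cd8a windows. The RUNX core was present in 2 windows, those of Cd2 and of the first Lck start, and in 17.3% of all windows. The E-box CANNTG was present in 8 windows and in 72.1% of all windows. The TATA box, as TATAAA, was in 0 of the 10 windows and in 14.2% of all windows. The AP-1 site, as TGANTCA, was in 0 and in 7.33% of all windows. The GATA core, as AGATAA, was in 0 and in 11.6% of all windows. Among the 10 the cAMP response element TGACGTCA was found in the Zap70 window alone, and in 1.83% of all windows. The NFAT core GGAAAA was likewise found in the Zap70 window alone, and in 24.7% of all windows. Both strands were searched, and GGAAAA shares the letters GGAA with the ETS core but cannot match at the same GGAA. A match describes the letters only and says nothing of what binds there.

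All 10 genes had their highest mean level at 7 days of obstruction, and for all 10 the 5 libraries of 7 days lay above the 5 libraries of 1 day without overlap. The mean order was 7 days, then 3 days, then 1 day, then 14 days, for every gene except Cd8a, in which the 14-day mean lay above the 1-day mean. Between neighbours in that order the test was passed by Cd4 between 3 and 1 day and by Cd3d between 14 and 1 day, and by no other of the 9 tested genes. In a bulk tissue sample, more T cells and more RNA of these genes per cell cannot be told apart. Across the 4 durations, 8 of the 9 genes that could be tested differed at an adjusted p under 0.05 in edgeR's quasi-likelihood test (0.0768 for Cd8a), beside 47.7% of all 14511 genes tested. Across the first 3 durations alone 9 of 9 differed, beside 34.4% of 13991 genes. Cd5 had too few counts to pass the filter on low counts and was not tested.

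**Figure D1:**
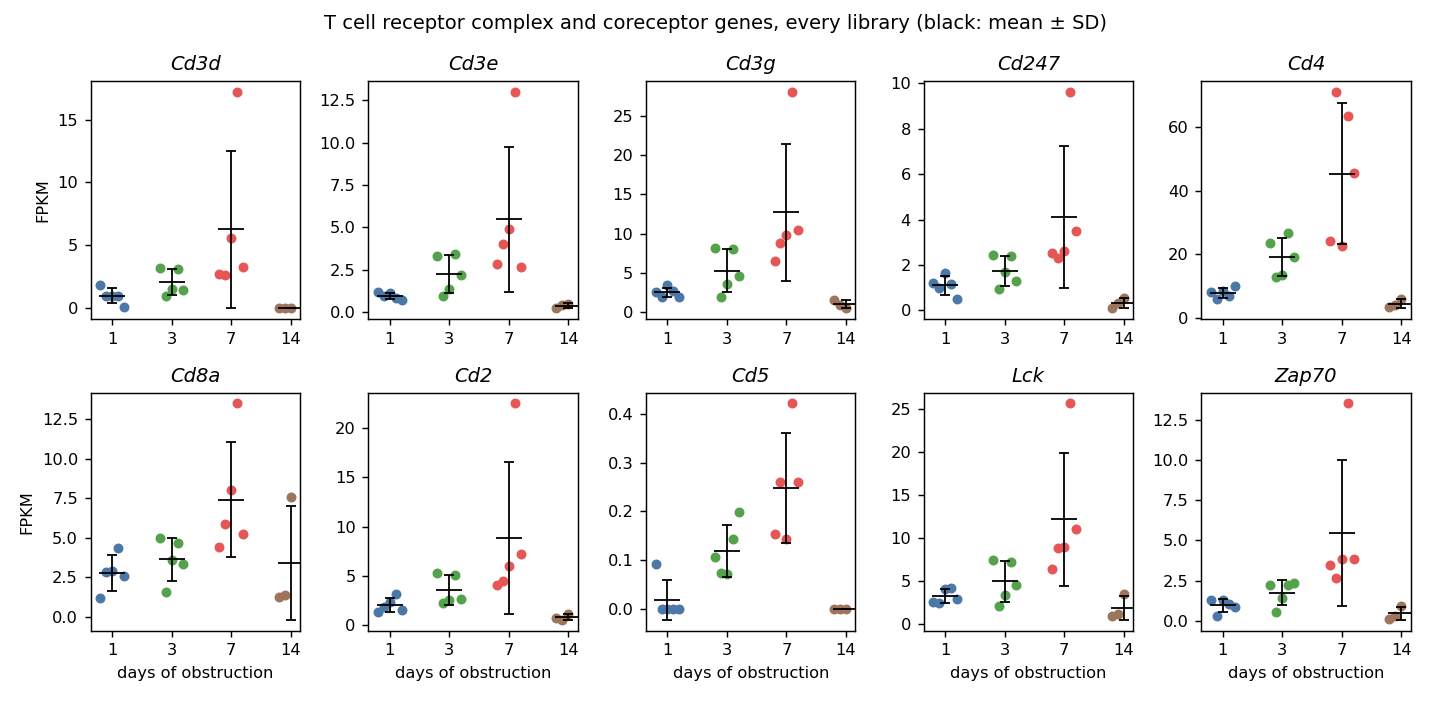
FPKM of each of the 10 genes (y axis, own scale per panel) in every library at 1, 3, 7 and 14 days of obstruction (x axis). Points are libraries, replicates in label order from left to right, and black bars show the mean ± SD (n = 5, 5, 5 and 3). The points of 7 days lie above those of 1 day in every panel, and replicate 4 of 7 days is the highest point in every panel except that of Cd4.

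Cd3e, the epsilon chain found in every T cell receptor complex, gave 1.16, 0.910, 1.09, 0.808 and 0.693 FPKM in replicates 1 to 5 at 1 day. It gave 3.28, 0.965, 1.35, 3.44 and 2.17 FPKM at 3 days, and 2.85, 4.01, 4.90, 13.0 and 2.63 FPKM at 7 days. The libraries of 1 day were closely grouped, those of 3 days split between high replicates 1 and 4 and a replicate 2 as low as 1 day, and replicate 4 of 7 days stood far above its group. Cd3e averaged 5.47 ± 4.30 FPKM at 7 days and 0.933 ± 0.195 FPKM at 1 day (SD, n = 5 each). The log2 fold change was 2.45 ± 0.45 (SE; adjusted p = 0.00119, edgeR). Without replicate 4 of 7 days the log2 fold change was 1.86 and the adjusted p 0.00244.

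Cd3g, the gamma chain, was the most abundant of the 3 CD3 genes per length. Its levels were 2.51, 1.94, 3.40, 2.66 and 1.90 FPKM at 1 day, 8.20, 1.88, 3.60, 7.99 and 4.59 FPKM at 3 days, and 6.53, 8.73, 9.76, 28.1 and 10.4 FPKM at 7 days. At 3 days the same replicates 1 and 4 were high and replicate 2 low. At 7 days Cd3g averaged 12.7 ± 8.72 FPKM, against 2.48 ± 0.615 FPKM at 1 day, and the log2 fold change was 2.25 ± 0.44 (adjusted p = 0.00168, edgeR) or 1.75 without replicate 4 of 7 days.

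Cd3d, the delta chain, pairs with epsilon. It gave 1.82, 0.948, 1.01, 1.01 and 0.135 FPKM at 1 day, 3.22, 1.01, 1.54, 3.13 and 1.43 FPKM at 3 days, and 2.69, 2.63, 5.57, 17.2 and 3.29 FPKM at 7 days. Replicate 5 of 1 day rested on 1 count. Between 7 and 1 day the log2 fold change was 2.58 ± 0.64 (adjusted p = 0.00887, edgeR), and 1.79 without replicate 4 of 7 days (adjusted p = 0.0267).

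Cd247, the zeta chain, carries most of the phosphorylation motifs of the complex and also serves Fc receptors of natural killer cells. It gave 1.19, 1.00, 1.66, 1.17 and 0.515 FPKM at 1 day, 2.43, 0.934, 1.71, 2.39 and 1.28 FPKM at 3 days, and 2.53, 2.30, 2.61, 9.63 and 3.48 FPKM at 7 days. Apart from replicate 4, the 7-day libraries lay close to the highest libraries of 3 days. Cd247 had a log2 fold change of 7 over 1 day of 1.79 ± 0.45 (adjusted p = 0.008, edgeR), and 1.22 without replicate 4 of 7 days (adjusted p = 0.0286).

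Cd4, the class II coreceptor, was the most abundant of the 10 genes at every duration. It gave 7.97, 5.96, 8.56, 6.77 and 10.0 FPKM at 1 day, 23.6, 12.8, 13.3, 26.6 and 19.2 FPKM at 3 days, and 24.2, 71.1, 22.6, 63.5 and 45.5 FPKM at 7 days. Every library of 3 days lay above every library of 1 day, and at 7 days replicate 2, not replicate 4, was the highest. Cd4 averaged 45.4 ± 22.1 FPKM at 7 days and 7.86 ± 1.59 FPKM at 1 day (SD, n = 5 each), and the log2 fold change was 2.44 ± 0.31 (adjusted p = 0.000141, edgeR). Leaving out any single library kept this value between 2.23 and 2.60.

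Cd8a, the alpha chain of the class I coreceptor, had the smallest log2 fold change of the 9 tested genes. It gave 1.20, 2.83, 2.89, 4.33 and 2.60 FPKM at 1 day, 4.96, 1.57, 3.60, 4.67 and 3.34 FPKM at 3 days, and 4.41, 5.87, 8.04, 13.5 and 5.25 FPKM at 7 days. The lowest library of 7 days was just above the highest of 1 day. The log2 fold change of 7 over 1 day was 1.35 ± 0.45 (adjusted p = 0.0378, edgeR; 0.0098 in the fit without the libraries labelled 14 days and 0.0513 with no filter on low counts). The call was lost when any of 6 libraries was left out, namely replicates 1, 2, 3 and 5 of 1 day and replicates 3 and 4 of 7 days, with adjusted p-values of 0.0932, 0.0562, 0.0676, 0.0646, 0.0687 and 0.122 in that order. Its partner chain Cd8b, named here after its values were seen, averaged 1.84 ± 1.49 FPKM at 7 days and 0.487 ± 0.194 FPKM at 1 day, with libraries that overlapped and a log2 fold change of 1.77 ± 0.60 (adjusted p = 0.0378, edgeR).

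Cd2, an adhesion molecule of T and natural killer cells, gave 1.37, 1.83, 2.33, 3.15 and 1.61 FPKM at 1 day. It gave 5.33, 2.27, 2.62, 5.10 and 2.65 FPKM at 3 days, and 4.05, 4.55, 6.06, 22.5 and 7.25 FPKM at 7 days. The log2 fold change of 7 over 1 day was 2.03 ± 0.44 (adjusted p = 0.00335, edgeR). Cd2 depended on replicate 4 of 7 days as the CD3 genes did, with 1.35 without it (adjusted p = 0.00644). Cd5, an inhibitory receptor of T cells, was barely detected. Its 3 counts at 1 day all lay in replicate 1, at 0.0916 FPKM, and the other 4 libraries of that duration were at 0. All 5 libraries held Cd5 counts at 3 days, at 0.071 to 0.198 FPKM, and at 7 days, at 0.143 to 0.421 FPKM, summing to 19 and 33 counts.

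Lck, the kinase that coreceptors bring to the receptor, gave 2.58, 2.47, 4.09, 4.13 and 2.92 FPKM at 1 day. It gave 7.44, 2.10, 3.41, 7.20 and 4.59 FPKM at 3 days, and 6.40, 8.84, 8.98, 25.7 and 11.1 FPKM at 7 days. The log2 fold change of 7 over 1 day was 1.83 ± 0.41 (adjusted p = 0.00416, edgeR), and 1.38 without replicate 4 of 7 days. Zap70, the kinase that docks on the phosphorylated chains, gave 1.29, 0.308, 1.32, 1.07 and 0.836 FPKM at 1 day. It gave 2.24, 0.523, 1.44, 2.22 and 2.38 FPKM at 3 days, and 3.49, 2.69, 3.82, 13.5 and 3.82 FPKM at 7 days. Zap70 was the one gene of the 10 whose 7-day libraries also lay above all its 3-day libraries. Its log2 fold change of 7 over 1 day was 2.39 ± 0.52 (adjusted p = 0.0035, edgeR), and 1.75 without replicate 4 of 7 days (adjusted p = 0.0111).

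Between 7 and 1 day, 9 of the 9 tested genes rose, where 12.3% of all tested genes rose. The median log2 fold change of the 9 genes was 2.25 and that of all tested genes 0.01. The groups did not overlap for 10 of the 10 genes, and in this direction for 14.3% of all tested genes. The same 9 of 9 rose in the fit without the libraries labelled 14 days, in which 18% of genes rose. Without replicate 4 of 7 days, 8 of 9 rose, Cd8a being the exception, and the log2 fold changes ranged from 1.03 for Cd8a to 2.29 for Cd4.

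**Figure D2:**
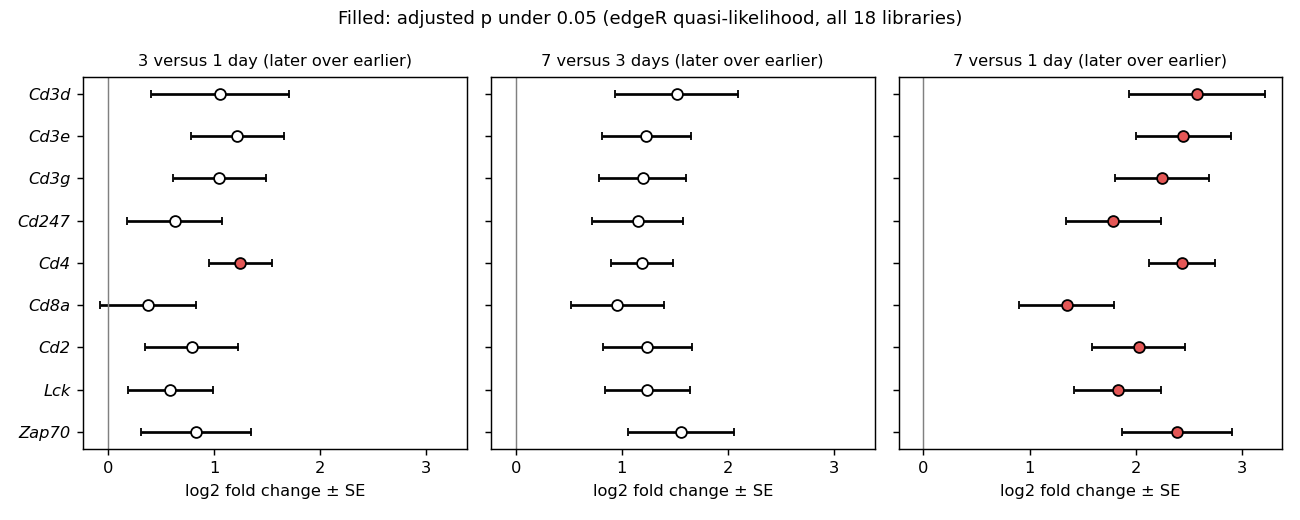
Log2 fold change ± SE (x axis) of the 9 tested genes (y axis) between 3 and 1 day, 7 and 3 days, and 7 and 1 day, the later duration over the earlier. Filled points had an adjusted p under 0.05 in edgeR's quasi-likelihood test over all 18 libraries: 1 gene, Cd4, between 3 and 1 day, 0 genes between 7 and 3 days and 9 genes between 7 and 1 day.

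Between 3 and 1 day Cd4 was the one gene of the 9 that rose, by a log2 fold change of 1.25 ± 0.30 (adjusted p = 0.0398, edgeR), where 1.16% of tested genes rose. All 9 log2 fold changes were above 0, with a median of 0.83 against -0.01 for all tested genes, and 3 genes had an unadjusted p under 0.05, as 8.53% of all tested genes did in this direction. The Cd4 call was lost when any of 9 libraries was left out, namely replicates 1, 2, 3 and 4 of 1 day, replicates 1, 3, 4 and 5 of 3 days and replicate 5 of 7 days, with log2 fold changes between 1.12 and 1.34 and an adjusted p of at most 0.108. In the fit without the libraries labelled 14 days the adjusted p of Cd4 was 0.0212, and 5.27% of genes rose. The call was lost with no filter on low counts (adjusted p = 0.0544) and with limma at a pseudocount of 1 or 0.1 (adjusted p = 0.0663 and 0.0624). It was also lost with a replicate block in edgeR's fit (adjusted p = 0.0823). Cd4 was also the one gene of the 10 whose libraries of 3 days and 1 day did not overlap, as did not 4.98% of tested genes in this direction. The next highest values were 1.22 ± 0.44 for Cd3e (adjusted p = 0.154), 1.06 ± 0.65 for Cd3d (adjusted p = 0.417) and 1.05 ± 0.44 for Cd3g (adjusted p = 0.218), and the lowest was 0.38 ± 0.45 for Cd8a (adjusted p = 0.704).

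Between 7 and 3 days 0 of the 9 genes passed edgeR's quasi-likelihood test, where 0.717% of tested genes rose. All 9 had an unadjusted p under 0.05, as 10% of all tested genes did in this direction. The median log2 fold change was 1.23 against 0 for all tested genes, and DESeq2 called 3 genes, Cd4, Lck and Zap70, where it called 3.78% of genes higher. The log2 fold change of Cd4 was 1.19 ± 0.29 (adjusted p = 0.062), and it passed in the fit without the libraries labelled 14 days (adjusted p = 0.0289), in which 4.75% of genes rose. Cd4 also passed when replicate 1 or 3 of 7 days, or replicate 2 or 3 of 14 days, was left out (adjusted p = 0.0339, 0.0297, 0.0345 and 0.0485 in that order). Zap70 had a log2 fold change of 1.56 ± 0.50 (adjusted p = 0.113) and was the one member whose libraries did not overlap, which held in this direction for 6.99% of tested genes. The remaining values lay between 0.96 for Cd8a and 1.52 for Cd3d. Without replicate 4 of 7 days the values were 0.64 for Cd3e, 0.70 for Cd3g, 0.73 for Cd3d, 0.58 for Cd247 and 0.56 for Cd2, while Cd4 kept 1.04. The comparisons 3 versus 1 day, 7 versus 3 days and 7 versus 1 day share libraries and are not independent of each other.

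The 3 libraries labelled 14 days held low levels of all these genes except Cd8a. Cd3d and Cd5 had 0 counts in each of them. Cd3e gave 0.209, 0.394 and 0.482 FPKM in replicates 1 to 3, Cd3g gave 1.53, 0.865 and 0.503 FPKM, and Cd247 gave 0.092, 0.313 and 0.545 FPKM. Cd4 gave 3.23, 3.97 and 6.03 FPKM, Cd2 gave 0.775, 0.585 and 1.15 FPKM, Lck gave 0.908, 1.20 and 3.44 FPKM and Zap70 gave 0.141, 0.321 and 0.909 FPKM. For these 9 genes every library labelled 14 days lay below every library of 7 days, as it did for 26.6% of tested genes. Cd8a gave 1.24, 1.41 and 7.60 FPKM, and its replicate 3 lay within the range of 7 days.

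Between 14 and 7 days 8 of the 9 tested genes were lower, where 16.9% of tested genes were lower, and the median log2 fold change was -3.27 against 0.07 for all tested genes. Lower levels were not particular to these genes. Of tested macrophage markers 11 of 14 were lower (median log2 fold change -2.3), and of dendritic cell markers 7 of 9 (-1.98). Natural killer and cytotoxic markers were lower in 5 of 7 (-2.13) and markers shared by leukocytes in 5 of 7 (-1.35). The latter summed to 286, 45.6 and 438 FPKM in replicates 1 to 3 of 14 days, against 219 to 546 FPKM at 7 days. B cell markers did not share the lower levels, with 1 of 10 lower and 1 higher (median -0.83). Their sums were 37.6, 5.91 and 77.5 FPKM in replicates 1 to 3 of 14 days, against 11.5 to 42.2 FPKM at 7 days. Against the mean of the 7-day group, Cd3d was at least 27.8-fold lower (adjusted p = 0.00112, edgeR). This takes 3 counts over the 14-day group as the limit that a count of 0 allows. Replicate 4 of 7 days raised that mean, at 17.2 FPKM of Cd3d against 2.63 to 5.57 FPKM in the rest of its group. The bound is therefore smaller without replicate 4, and was not recomputed. Cd5 was at least 5.94-fold lower than its 7-day mean by the same limit, replicate 4 included, with no test. Log2 fold changes were -3.59 ± 0.62 for Cd3e (adjusted p = 0.000456), -3.37 ± 0.61 for Cd3g, -3.36 ± 0.65 for Cd247, -3.05 ± 0.40 for Cd4 (adjusted p = 5.75e-05), -3.09 ± 0.60 for Cd2, -2.44 ± 0.52 for Lck and -3.27 ± 0.70 for Zap70. Without replicate 4 of 7 days the same 8 were called, with -3.00 for Cd3e, -2.41 for Cd2 and -2.63 for Zap70, and without replicate 3 of 14 days, when Cd8a was called too, Lck had -3.10 and Zap70 -4.12. In the fit of all libraries Cd8a had -0.88 ± 0.53 (adjusted p = 0.204), and -2.05 without replicate 3 of 14 days (adjusted p = 0.0117). That replicate also had the highest summed level of 8 adipocyte markers, 2220 FPKM, against 247 and 62.2 FPKM in the other 2 libraries labelled 14 days and 22.5 to 163 FPKM in the 15 earlier libraries. Markers of loop and collecting duct summed to 1280 to 2760 FPKM in the libraries labelled 14 days, against 273 to 947 FPKM in the 15 earlier ones, and 6 urothelium markers summed to 279, 5.41 and 8.34 FPKM in replicates 1 to 3 of 14 days, against 0.246 to 87.1 FPKM in the 15 earlier ones. The part of these other tissues in the lower T cell gene levels was not tested, and duration and tissue content cannot be told apart.

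Between 14 and 3 days 6 of 9 genes were lower, where 12.6% of tested genes were lower: Cd3d, at least 9.15-fold lower by the limit of 3 counts, Cd3e (log2 fold change -2.36), Cd247 (-2.21), Cd3g (-2.17), Cd4 (-1.86) and Cd2 (-1.85). Cd2 lost its call without replicate 1 or 4 of 3 days or replicate 1 or 3 of 14 days (adjusted p of at most 0.0887). Cd3e and Cd247 lost theirs without replicate 1 of 14 days (adjusted p = 0.0504 and 0.087), and Cd3g without replicate 3 of 14 days (adjusted p = 0.0755) and with the 2 groups alone (adjusted p = 0.0512). Without replicate 1 of 14 days 3 of 9 were called. Between 14 and 1 day Cd3d alone was lower, where 14.3% of tested genes were lower. It was at least 4.36-fold lower by the same limit (adjusted p = 0.0353, edgeR), and the call was lost without any one of replicates 1 to 4 of 1 day or of the 3 libraries labelled 14 days, at an adjusted p of at most 0.0894. Without replicate 5 of 1 day 2 genes were called, and without replicate 4 of 7 days 3 genes.

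Within durations the CD3 genes and their partners deviated together from library to library. Over the 15 libraries of 1, 3 and 7 days, log2 CPM (counts scaled to library size) of Cd3e correlated with those of Cd3g (Pearson r = 0.97, Spearman rho = 0.91, permutation p = 1e-05 for each, the smallest that 100000 permutations can give, adjusted p = 3.8e-05 for r). Much of this is the shared time course, so each duration was also centred on its own mean. The centred r of Cd3e was 0.91 with Cd3g (permutation p = 0.00052, adjusted p = 0.0049), 0.87 with Cd3d (p = 0.00019, adjusted p = 0.0036), 0.84 with Lck (p = 0.0036, adjusted p = 0.017) and 0.79 with Cd247 (p = 0.0051, adjusted p = 0.019). It was 0.76 with Zap70 (adjusted p = 0.026) and with Cd2 (adjusted p = 0.034), and 0.65 with Cd8a (adjusted p = 0.034), and the centred rho did not pass for Lck (0.66, adjusted p = 0.069), Cd2 (0.59, adjusted p = 0.081) or Cd8a (0.64, adjusted p = 0.067). With Cd4 the centred r was 0.50 and the centred rho 0.42 (permutation p = 0.16 and 0.19, adjusted p = 0.27 and 0.33), and with Cd5 it was 0.54 (adjusted p = 0.086). Without the 2 libraries farthest from the median of Cd3e, its uncentred r with the other 9 genes lay between 0.71 and 0.94. The centred r was not recomputed with libraries left out. Replicate 4 of 7 days had the largest deviation from its duration mean for Cd3e (1.466) and for Cd3g (1.284), so the dependence of the centred r on it was not tested. The p-values are adjusted over 19 relations.

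Cd4 was also compared with macrophage markers. The mean log2 CPM of 14 macrophage markers correlated with Cd4 over the 15 libraries (r = 0.93, rho = 0.89, permutation p = 1e-05 and 7e-05, adjusted p = 3.8e-05 and 0.00027), and did so within durations (centred r = 0.86, permutation p = 0.0012, adjusted p = 0.0077, and centred rho = 0.83, adjusted p = 0.015). Without the 2 libraries farthest from the median of the macrophage mean, the uncentred r was 0.88. As pooled, the same mean also correlated with every other member. The pooled r ran from 0.58 for Cd3d (permutation test, adjusted p = 0.022) to 0.82 for Cd5 (adjusted p = 0.00041). Its centred r was 0.29 with Cd3e (adjusted p = 0.57), 0.36 with Cd3g (adjusted p = 0.39) and -0.01 with Cd3d (adjusted p = 0.99). After Cd4 the highest centred r was 0.52 for Cd5 (adjusted p = 0.14), then 0.43 for Lck (adjusted p = 0.28). The centred rho of Cd5 was 0.63 (adjusted p = 0.079). The difference between the correlations of Cd4 and of the CD3 genes was not tested. The summed macrophage markers were 333, 779, 255, 998 and 644 FPKM in replicates 1 to 5 of 7 days. Replicates 2 and 5, where the ratio of Cd4 to Cd3e was 17.8 and 17.3, were high in this sum, and replicate 3, where the ratio was 4.61, was lowest. Replicate 4 was highest in both the macrophage sum and Cd3e, and its ratio was 4.89.

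**Figure D3:**
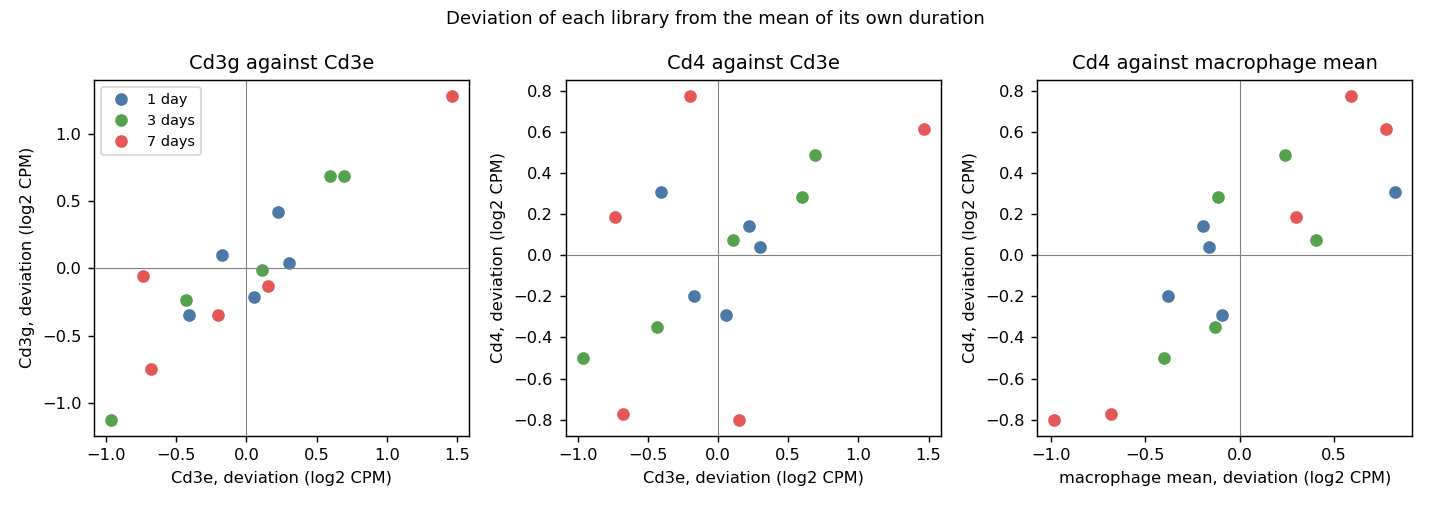
Deviation of each of the 15 libraries of 1, 3 and 7 days from the mean of its own duration (both axes in log2 CPM), for Cd3g against Cd3e, Cd4 against Cd3e, and Cd4 against the mean of 14 macrophage markers. Each point is 1 library, coloured by duration. The points follow a line in the panels of Cd3g against Cd3e (r = 0.91) and of Cd4 against the macrophage mean (r = 0.86) and scatter more in that of Cd4 against Cd3e (r = 0.50).

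Ratios of FPKM between members, chosen after the counts had been seen, passed no test between durations. The ratio of Cd8a to Cd4 had a geometric mean of 0.167 at 7 days (range 0.0826 to 0.356) and 0.332 at 1 day (range 0.151 to 0.64). The log2 difference was -0.99 (exact two-sided permutation p = 0.103, adjusted p = 0.31 over 9 ratio tests, where the smallest possible p is 0.00794). The ratio of Cd8a to Cd3e had a geometric mean of 1.5 at 7 days and 2.80 at 1 day (log2 difference -0.90, exact permutation p = 0.0794, adjusted p = 0.31). The ratio of Cd4 to Cd3e was 8.99 at 7 days and 8.43 at 1 day (exact permutation p = 0.889), with single libraries of 7 days between 4.61 and 17.8. The ratios of all 3 pairs overlapped between every 2 of the durations 1, 3 and 7 days.

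The signalling genes downstream of the receptor rose in part between 7 and 1 day. Of 29 further genes of T cell receptor signalling, 27 were found and 23 tested, and between 7 and 1 day 13 rose and 0 fell. For this list and those that follow, 12.3% of all tested genes rose and 13.3% fell between 7 and 1 day, and between 14 and 7 days 16.9% were lower and 21.4% higher. The median log2 fold change of the list was 0.84. The phosphatase genes Ptpn22 and Ubash3a, which restrain receptor signalling, rose by log2 fold changes of 1.89 ± 0.54 (adjusted p = 0.0162) and 1.82 ± 0.55 (adjusted p = 0.0231) in edgeR's test. Ptpn22 lost its call without replicate 4 of 7 days (adjusted p = 0.0703) and Ubash3a without replicate 1 of 1 day (adjusted p = 0.0591). Between 7 and 3 days 1 gene of this list rose, Ptpn6, a phosphatase found in most blood cells (log2 fold change 0.69 ± 0.16, adjusted p = 0.0472; 0.121 without replicate 4 of 7 days and 0.0716 with no filter on low counts). Between 3 and 1 day 0 of 23 passed edgeR's test, and Lcp2 and Ptprc, with the smallest p-values, had log2 fold changes of 0.61 ± 0.27 (adjusted p = 0.25) and 0.58 ± 0.29 (adjusted p = 0.308). Between 14 and 7 days 12 were lower and 0 higher, the exchange factor Vav1 by a log2 fold change of -2.85 ± 0.47.

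Of 27 costimulatory and surface genes of T cells, 23 were tested, and 18 rose and 0 fell between 7 and 1 day, with a median log2 fold change of 1.83. Cd7, a surface protein of T and natural killer cells, averaged 9.41 ± 3.12 FPKM at 7 days and 0.941 ± 0.328 FPKM at 1 day (log2 fold change 3.20 ± 0.37, adjusted p = 8.75e-05, edgeR). The inhibitory receptor Lag3 rose by a log2 fold change of 2.54 ± 0.58 (adjusted p = 0.00459) between 7 and 1 day. The inhibitory receptor Pdcd1 was at 0 in all 18 libraries. Between 14 and 7 days 16 were lower and 1 higher, S1pr1, a sphingosine phosphate receptor that endothelium also carries (log2 fold change 1.44 ± 0.52, adjusted p = 0.037). Without replicate 3 of 14 days S1pr1 had 0.83 (adjusted p = 0.255).

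Of 14 transcription factors of T cells, 12 were tested and 4 rose between 7 and 1 day, with a median log2 fold change of 0.53. Bcl11b, which maintains T cell identity, rose by 1.74 ± 0.32 (adjusted p = 0.00129, edgeR) and Tbx21, the factor of type 1 responses, by 1.59 ± 0.46 (adjusted p = 0.0174; 0.0602 without replicate 4 of 7 days). Foxp3, the factor of regulatory T cells, had a log2 fold change of 0.62 ± 0.17 between 7 and 3 days (adjusted p = 0.0766; 0.039 in the fit without the libraries labelled 14 days). Between 14 and 7 days 5 of the 12 were lower and 1 higher, with a median log2 fold change of -0.74. Tbx21 was lower by a log2 fold change of -2.54 ± 0.63 (adjusted p = 0.0049), Bcl11b by -2.48 ± 0.42 (adjusted p = 0.00042) and Ikzf1, a factor of all lymphocytes, by -2.18 ± 0.51 (adjusted p = 0.00369). Gata3 was the one called higher, at 75.3, 8.48 and 26.7 FPKM in replicates 1 to 3 of 14 days and 12.0 to 19.3 FPKM at 7 days (log2 fold change 1.55 ± 0.51, adjusted p = 0.025). Without replicate 1 of 14 days it had 0.49 (adjusted p = 0.464). Gata3 is also made by collecting duct and by urothelium. The joint markers of loop and collecting duct were high in all 3 libraries, but highest in replicate 2 (2760 FPKM), where Gata3 was lowest. Urothelium markers were high in replicate 1. The part of these tissues in the Gata3 level was not tested.

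Markers of other leukocytes also rose in part between 7 and 1 day. Of 7 tested natural killer and cytotoxic markers 5 rose between 7 and 1 day, among them Klrk1, an activating receptor (log2 fold change 2.40 ± 0.52, adjusted p = 0.00335, edgeR), and Ctsw, a protease of cytotoxic cells (1.96 ± 0.40, adjusted p = 0.00229). Their sum was 28.2, 69.6, 68.8, 133 and 40.1 FPKM in replicates 1 to 5 of 7 days and 11.8 to 25.3 FPKM at 1 day. Of 14 tested macrophage markers 9 rose, with a median log2 fold change of 1.74, of 9 tested dendritic cell markers 5 rose, and of 7 tested markers shared by leukocytes 3 rose. Of 10 tested B cell markers 3 rose and 1 fell, Fcer2 (-2.14 ± 0.70, adjusted p = 0.0329; 0.083 without replicate 5 of 1 day). Of 6 tested markers of lymphoid tissue 4 rose between 7 and 1 day, among them the chemokines Cxcl13, Ccl19 and Ccl21. The markers of this list differed between single libraries of 7 days. They summed to 455 and 262 FPKM in replicates 4 and 2 of that duration, and to 56.7, 47.7 and 174 FPKM in replicates 1, 3 and 5. Of 5 thymocyte markers 1 was tested, Cd1d1. Its log2 fold change was -0.06 between 7 and 1 day (not called) and 0.78 between 14 and 7 days (called higher). The thymocyte genes Rag1 and Rag2, with 1 count each over all 18 libraries, were at 0 in all libraries of 1, 3 and 14 days. The calls given above for Ptpn6, S1pr1, Gata3 and Fcer2 were also lost without other single libraries. The part of any of these cell types in the levels of the 10 genes was not tested.

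**Figure D4:**
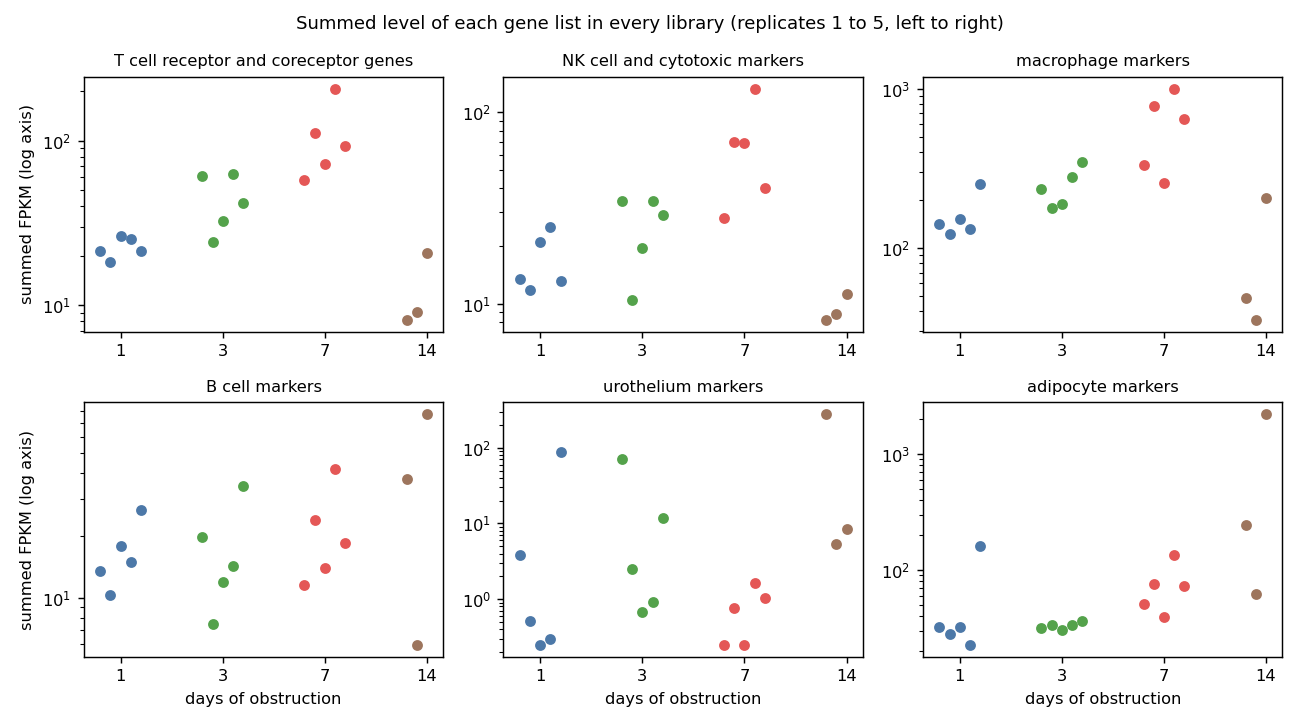
Summed FPKM (y axis, log scale) of the 10 T cell receptor and coreceptor genes and of 5 marker lists in every library at 1, 3, 7 and 14 days of obstruction (x axis). Points are libraries. The sums of the 10 genes, of natural killer markers and of macrophage markers are highest in replicate 4 of 7 days (207, 133 and 998 FPKM). Of the 207 FPKM, 63.5 FPKM is Cd4, which macrophages also carry in rats. Urothelium and adipocyte sums are highest in libraries labelled 14 days (279 and 2220 FPKM).

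The genes most like the mean of Cd3d, Cd3e and Cd3g over the 15 libraries of 1, 3 and 7 days, by Pearson r of log2 CPM among 14502 genes, included Cxcr6 (0.967), Tbc1d10c (0.966), Cd6 (0.963), Cxcr3 (0.957), Ctsw (0.954), Sept1 (0.95), AC109737.1 (0.95), Arhgap9 (0.948) and Ptprcap (0.948). An r above 0.9 was reached by 34 of these genes. Over all 18 libraries it was reached by 44, led by Ctsw (0.96), Arhgap9 (0.955), Cxcr6 (0.953) and Cd6 (0.951). Cxcr6, a chemokine receptor of tissue T cells, gave 2.68, 2.34, 2.43, 9.62 and 2.25 FPKM in replicates 1 to 5 of 7 days, with replicate 4 far above the others. Cxcr6 was picked for its likeness over these same libraries, so its high replicate 4 is no separate observation. Among the members outside the mean, r over the 15 libraries was 0.954 for Cd247, 0.943 for Lck, 0.933 for Cd2, 0.918 for Zap70, 0.835 for Cd4 and 0.83 for Cd8a. Over all 18 libraries Cd8a had 0.637 and Cd4 0.886. These correlations are descriptive, and the points share the durations and the depth of their libraries.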

How the data were processed

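The submitters' processing notes name fastp 0.19.7 and HISAT2 2.0.4 as tools used on the reads. No source used here names the counting tool, the genome build or whether strand was used. The authors deposited 1 table with raw counts and FPKM values per gene for 18 libraries, and the deposited counts were used for tests and the deposited FPKM for levels. Differences were fitted with edgeR 4.0.16 (R 4.3.3): TMM scaling, a filter of at least 10 counts (filterByExpr, 14511 genes kept), quasi-likelihood tests over all 18 libraries with 1 coefficient per duration, and Benjamini-Hochberg adjustment over all genes tested, with a threshold of 0.05. DESeq2 1.42.0, limma 3.58.1 on log2(FPKM + 1) and log2(FPKM + 0.1), no filter, 2 groups alone, a replicate block, fits without the libraries labelled 14 days and without each library were alternatives. Correlations used log2 CPM with a prior count of 2, and 100000 permutations, shuffled within durations where centred. Promoters came from RefSeq (GRCr8). The 10 genes and the other gene lists were chosen with earlier results of these data known. Genes named outside the 10 were, with the exceptions below, of each list and comparison, up to 3 called genes in each direction with the largest log2 fold change or, where no gene was called, the 2 with the smallest p, and the 10 genes most like the CD3 mean. Havcr1, Cd8b, Pdcd1, Rag1 and Rag2 are named outside this rule. Floors and limits cover counting error only. Of 180 listed genes 173 were found by name. Some genes that the naming rule selects are not reported here.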

Additional observations from a re-analysis of the deposited data

Results flagged for a closer look

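At 7 days of obstruction, replicate 4 lay far above the other 4 libraries, by the gap to its nearest neighbour relative to the whole range (Dixon's test), in 7 of the 10 genes. It held 17.2 FPKM of Cd3d, 13.0 FPKM of Cd3e, 28.1 FPKM of Cd3g, 9.63 FPKM of Cd247, 22.5 FPKM of Cd2, 25.7 FPKM of Lck and 13.5 FPKM of Zap70. Its macrophage and lymphoid tissue marker sums, 998 and 455 FPKM, were also the highest of the 18 libraries, and their part in these levels was not tested. At 1 day, replicate 1 was flagged for Cd5, at 0.0916 FPKM, because the other 4 libraries were at 0, and this value rests on 3 counts. In all, 8 of 30 groups of 5 libraries were flagged. The test is set to flag about 1 in 20 groups of normally distributed values, and its rate for FPKM of genes with few counts was not computed. The 7 flags of replicate 4 come from 1 library and are not independent.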

How the results depend on the processing

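Between 7 and 1 day, 8 to 9 of 9 genes were called when any single library was left out, and between 14 and 7 days 8 to 9. Between 3 and 1 day the count was 1, and it was 0 with no filter on low counts, 0 with limma at either pseudocount, 2 with the 2 groups alone, 2 without the libraries labelled 14 days and replicate 4 of 7 days, and 0 to 1 when a library was left out. Between 7 and 3 days the count was 0, and it was 3 with DESeq2, 1 without the libraries labelled 14 days, 3 when replicate 5 of 1 day was left out as well, and 0 to 1 when a library was left out. Between 14 and 3 days it was 3 to 8 when a library was left out, and between 14 and 1 day 0 to 3, with 0 by limma at a pseudocount of 1, 3 at 0.1 and 0 with the 2 groups alone. Of the 9 genes tested over 4 durations, 8 to 9 differed when a library was left out. Of 19 correlations, 19 passed as pooled, 8 with durations centred and 16 to 19 as pooled without single libraries. Directions turned for Cd8a, which was never called in these comparisons: its log2 fold change of 14 over 3 days, 0.08, became -0.30 and -0.48 with limma (pseudocounts 1 and 0.1), -0.11 without replicate 2 of 3 days and -1.10 without replicate 3 of 14 days, and that of 14 over 1 day, 0.46, became -0.01 and -0.10 with limma and -0.72 without replicate 3 of 14 days (leave-one-out range -0.72 to 0.84). The log2 difference of the Cd4 to Cd3e ratio, near 0 throughout, turned to -0.02 between 3 and 1 day without replicate 2 of 3 days (range to 0.31). Between 7 and 3 days it turned to 0.11 and 0.00 without replicate 2 or 3 of 3 days, and to 0.22 and 0.20 without replicate 3 or 4 of 7 days (range from -0.27). Between 7 and 1 day it turned to -0.15 and -0.14 without replicate 2 or 5 of 7 days (range to 0.33). The Cd8a to Cd4 ratio turned to 0.11 between 7 and 3 days without replicate 2 of 7 days (range from -0.41). The cause of these changes was not tested.

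Groups share replicate numbers. Over 24 same-numbered pairs the correlation of deviations from the group means ran from -0.424 to 0.395 (median 0.041), and 10 exceeded 0.1. Over 96 differently numbered pairs it ran from -0.643 to 0.526 (median -0.034), and 24 exceeded 0.1. The difference between these sets was not tested, so the values do not decide whether the numbers pair libraries. With the replicate block, calls were 9 between 7 and 1 day, 0 between 3 and 1 day, 0 between 7 and 3 days, 8 between 14 and 7 days, 6 between 14 and 3 days and 1 between 14 and 1 day, and Cd8a between 14 and 3 days was -0.02. Low counts limit Cd3d and Cd5 most.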
